A study of Mus musculus with 42 samples.

Results

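The genes described here are 10 mouse genes of redox defence: *Prdx1*, *Prdx6*, *Txn1*, *Gpx1*, *Gpx4*, *Gsr*, *Cat*, *Nfe2l2*, *Nqo1* and *Hmox1*. They were chosen by name, with earlier results of these data known. They are 10 of 15737 genes whose symbol is listed once in the expression table, which covers chromosomes 1 to 11. RNA-seq was done on embryos of ICR mice bought at 6 to 8 weeks of age, from superovulated females mated to males of the same strain, with 18 samples in 9 groups, 2 libraries per group and 3 embryos pooled per library. Early 2-cell embryos were collected 34 h after hCG and were untreated. Late 2-cell embryos were collected at 48 h as untreated controls, with 0.01 µM FK866, with 0.01 µM FK866 and 10 µM NMN, with 10 nM TSA, or after knockdown of *Sirt1*. Embryos at the 4-cell stage were collected at 58 h as untreated controls, with FK866, or with FK866 and NMN at the same doses. The labels call the controls untreated, and the methods give DMSO, the solvent of FK866 and TSA, as the negative control. FK866 blocks NAMPT, which turns nicotinamide into NMN on the way to NAD+, and NMN given in the medium enters after that step. TSA inhibits zinc-dependent histone deacetylases. The *Sirt1* knockdown combined siRNA, *Trim21* mRNA and an antibody to SIRT1, all injected into zygotes, and its values are set against the same late 2-cell control column, which the labels do not describe as injected. For the injections the methods name a negative control that received scrambled siRNA and *Trim21* mRNA, and no column is labelled as that control.

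Hydrogen peroxide and lipid peroxides are by-products of oxygen metabolism. Cells remove them with catalase, with glutathione peroxidases that spend glutathione, and with peroxiredoxins that spend thioredoxin. NADPH restores glutathione through glutathione reductase and thioredoxin through thioredoxin reductase. The transcription factor NRF2, encoded by *Nfe2l2*, is held low by KEAP1 and CUL3 and, under oxidative or electrophilic stress, switches on genes such as *Nqo1*, *Hmox1*, *Prdx1*, *Gsr* and *Txn1* through the antioxidant response element. The early 2-cell embryo still carries RNA made by the oocyte, and by the late 2-cell stage much of it is lost and the embryonic genome is active. In RNA from pooled embryos, fewer cells and less RNA per cell cannot be told apart.

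All 10 are protein-coding on GRCm38 in GENCODE M21. *Prdx6* (chr1:161240112-161251219), *Txn1* (chr4:57943373-57956411), *Cat* (chr2:103453849-103485160), *Nfe2l2* (chr2:75675513-75704641) and *Nqo1* (chr8:107388225-107403206) lie on the minus strand. *Prdx1* (chr4:116685544-116700822), *Gpx1* (chr9:108338903-108340343), *Gpx4* (chr10:80047166-80056439), *Gsr* (chr8:33652523-33698163) and *Hmox1* (chr8:75093621-75100589) lie on the plus strand. An snoRNA gene within *Gsr* and an snRNA gene within *Nfe2l2* share no exon with them.

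The promoter windows of RefSeq on GRCm38.p6, each 300 bases from 250 bases before the start of transcription to 50 after it, held 7 of the 10 genes, namely *Nfe2l2*, *Cat*, *Txn1*, *Prdx1*, *Nqo1*, *Gpx1* and *Gpx4*, the last with several starts. *Gsr*, *Prdx6* and *Hmox1* had no entry. The antioxidant response element core was searched as TGACNNNGC on both strands. It was present in 2 of the 10 windows of these genes, against 4071 of 32851 windows of that length in all, or 12.4%. Windows are shown for 4 genes: the 2 with the core, those of *Prdx1* and *Nfe2l2*, and those of the genes with the greatest fall and rise between the early and late 2-cell stages, *Txn1* and *Gpx1*. Capitals mark the core, which lies 133 bases before the start on the minus strand of the *Prdx1* window and 240 bases before it on the plus strand of the *Nfe2l2* window.
Prdx1, chr4:116685349-116685648, plus strand: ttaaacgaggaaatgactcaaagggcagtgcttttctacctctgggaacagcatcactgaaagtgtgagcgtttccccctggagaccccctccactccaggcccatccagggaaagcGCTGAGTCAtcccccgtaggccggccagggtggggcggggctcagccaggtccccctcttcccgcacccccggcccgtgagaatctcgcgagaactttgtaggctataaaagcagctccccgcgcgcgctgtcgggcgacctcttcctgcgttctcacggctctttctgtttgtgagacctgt
Nfe2l2, chr2:75704614-75704913, minus strand: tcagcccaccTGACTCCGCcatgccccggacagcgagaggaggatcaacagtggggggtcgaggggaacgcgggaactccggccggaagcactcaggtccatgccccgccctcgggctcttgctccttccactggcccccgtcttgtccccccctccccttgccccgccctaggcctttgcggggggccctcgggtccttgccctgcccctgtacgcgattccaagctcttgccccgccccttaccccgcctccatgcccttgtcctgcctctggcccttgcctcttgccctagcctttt
Txn1, chr4:57956362-57956661, minus strand: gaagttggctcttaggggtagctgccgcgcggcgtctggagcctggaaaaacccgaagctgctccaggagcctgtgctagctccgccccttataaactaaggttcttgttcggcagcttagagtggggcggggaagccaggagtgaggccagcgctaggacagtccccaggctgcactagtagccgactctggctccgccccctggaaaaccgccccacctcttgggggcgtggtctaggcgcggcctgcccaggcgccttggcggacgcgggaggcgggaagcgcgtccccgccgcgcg
Gpx1, chr9:108338830-108339129, plus strand: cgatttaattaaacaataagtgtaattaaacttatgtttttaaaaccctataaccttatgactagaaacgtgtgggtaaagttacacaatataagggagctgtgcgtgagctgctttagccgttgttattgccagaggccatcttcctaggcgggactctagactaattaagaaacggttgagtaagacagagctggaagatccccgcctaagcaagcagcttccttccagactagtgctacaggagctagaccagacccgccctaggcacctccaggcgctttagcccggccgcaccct
A match to these letters is a description of the window and not a site shown to be bound, and windows without a match were searched over these 300 bases alone.

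The values are FPKM, reads scaled by the gene's exon length and the library's total, with 1 column for each group. Such a value is a share of its library, so a rise or fall between stages or groups need not be one in RNA per embryo. Times the exon length, 96.8% to 97.8% of the values above 0 in a column fell in 1 way on whole reads of 1 or 2 libraries. From this, 16 libraries with totals of 3169677 to 10003481 reads were separated, with 5495 to 10186 genes having a read. Columns of 2 libraries were sums and were divided by 2. A single library each was found in the column headed 4-cell FK866 and in that headed 4-cell FK866+NMN. All values of the 10 genes could be separated. Within a column, A stands for the library with more reads and B for the other. The study calls the 2 libraries of a group biological replicates. The p-values below rest on the spread between such libraries, pooled over the columns of 2 libraries and moderated across genes. A column of 1 library has no spread of its own and takes the pooled one.

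Column headers and the supplementary tables of the study assign 5 of the 9 columns differently. Each 4-cell group had 84 tabulated values among the rows, and every one could be found in a single column. Control was in the column whose header reads late 2-cell TSA, FK866 in that of late 2-cell Sirt1, and FK866+NMN in that of 4-cell control. The signs listed for TSA were those of the column headed 4-cell FK866 over late 2-cell control for 1203 of 1203 genes, against 546 for the column headed TSA. The signs listed for *Sirt1* knockdown were those of the column headed 4-cell FK866+NMN for 773 of 821 genes, against 442 for the column headed Sirt1. Columns of other groups shared many of these signs too. For TSA, the early 2-cell column matched 1096 genes and late 2-cell FK866 986. For *Sirt1* knockdown, late 2-cell FK866 matched 703 and early 2-cell 684. For the late 2-cell control, FK866 and FK866+NMN columns the tables matched the headers. The early 2-cell column was not matched, since the tables used here give no values for that group, and it is taken by its header. *Sirt1* itself was at 86.6 and 66.2 FPKM in the late 2-cell control libraries and at 32.4 and 73.1 FPKM in the column headed Sirt1. It was at 11.3 FPKM in the library that the tables read as the knockdown, and at 7.61 FPKM in the library that they read as TSA.

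Markers also differed between the disputed columns. The 4 other columns are early 2-cell and late 2-cell control, FK866 and FK866+NMN. Summed FPKM of 8 of 9 2-cell embryo genes, such as *Zscan4* and *Usp17l* family members, was 114 to 501 in the libraries of these 4. It was 11.5 to 32.9 in the libraries headed late 2-cell TSA and Sirt1, 43.6 and 45.3 in those headed 4-cell control, and 263 and 337 in the libraries headed 4-cell FK866 and 4-cell FK866+NMN. The 5 oocyte genes that could be separated, of 11, summed to 28.8 to 384 FPKM and were highest in the early 2-cell libraries. Of 15 cumulus and granulosa cell genes, 7 could be separated, with 3 to 7 of them at 0 and sums of 0 to 16.5. Of 5 erythroid genes, 4 could be separated, with sums of 0.308 to 212 and 0 to 3 at 0. The library headed 4-cell FK866, read as TSA by the tables, was highest in both of these last lists, and their part in its results was not tested. Comparisons are given by the headers and again by the tables. The median column difference over all genes was not at 0 in several of them. By the headers it was -0.21 for 4-cell against late 2-cell control, -0.24 for late 2-cell FK866+NMN against FK866, -0.44 for TSA, -0.28 for the Sirt1 column, 0.42 for 4-cell FK866 and -0.29 for 4-cell FK866+NMN against FK866. By the tables it was -0.44 for 4-cell against late 2-cell control and -0.21 for *Sirt1* knockdown, and it was -0.35 for late 2-cell FK866+NMN against control.

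**Figure D1:**
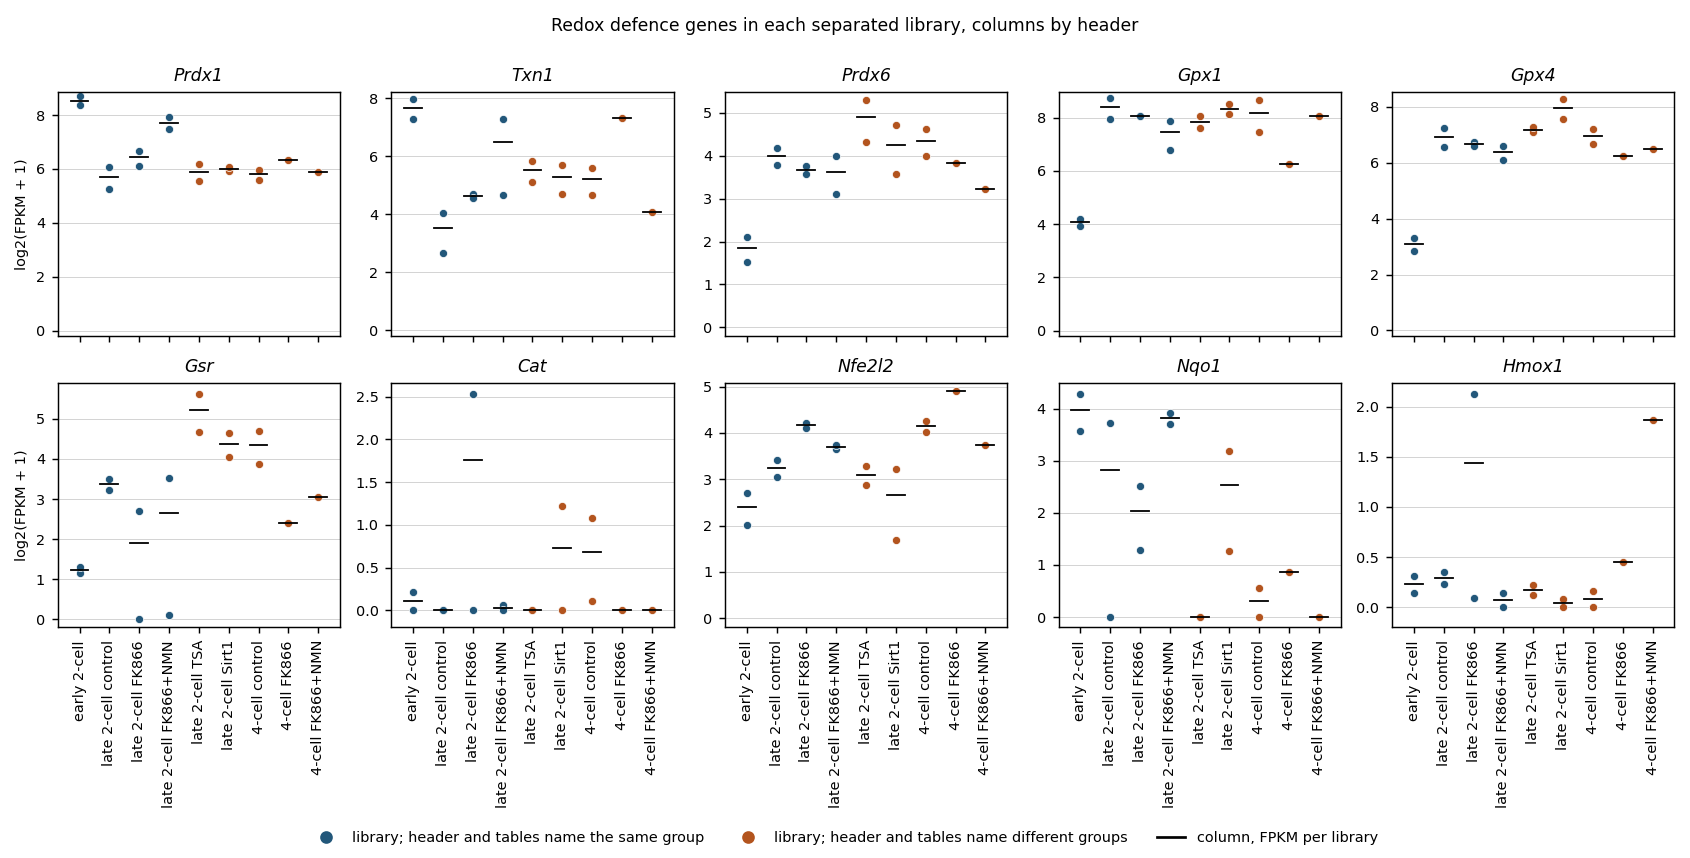
Level of each of the 10 genes as log2(FPKM + 1) in each of the 16 separated libraries, by column header; points are libraries and bars the column's FPKM per library. *Gpx1*, *Gpx4* and *Prdx6* are lowest in the 2 early 2-cell libraries, *Prdx1* is highest there, and *Cat* is at 0 in 10 of 16 libraries.

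The peroxidases differed widely in level. *Gpx1*, the main cytosolic glutathione peroxidase, ranged from 14.2 to 425 FPKM over the 16 libraries with a median of 253. *Gpx4*, which reduces lipid peroxides within membranes, ranged from 6.25 to 309 with a median of 98.9. *Prdx1*, the abundant cytosolic peroxiredoxin, ranged from 37.7 to 414 with a median of 67.5, and *Txn1*, its electron donor thioredoxin, from 5.25 to 247 with a median of 29.2. *Prdx6*, a peroxiredoxin that uses glutathione, ranged from 1.88 to 38.4 FPKM. *Nfe2l2* had a median of 10.6 and a range of 2.21 to 29.2, and *Gsr*, glutathione reductase, a median of 9.32 and a range of 0 to 47.8. The neighbours *Prdx6*, *Nfe2l2* and *Gsr* in this order had ranges that lay largely over each other. *Nqo1*, a quinone reductase, had a median of 1.42 FPKM, was at 0 in 5 of 16 libraries and reached 18.4. *Cat*, catalase, had no read in 10 libraries and *Hmox1*, haem oxygenase 1, had none in 3, with highest levels of 4.78 and 3.37 FPKM. Between the 2 libraries of a column, the SD on the log2(FPKM + 1) scale was smallest for *Gpx4* and *Prdx1*, at 0.35 for both, and largest for *Gsr* and *Nqo1*, at 1.22 and 1.19.

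Reads of some of these genes may be shared with near-identical copies. Among GENCODE M21 transcripts, *Gpx4-ps2* matched *Gpx4* at 99.7% identity over 733 bases, and *Gm21399* matched *Prdx1* at 98.3% over 597 bases. *Txn-ps1* matched *Txn1* at 95.8% over 309 bases and was at 0 to 0.691 FPKM per library. *Gpx4-ps2* was at 13.7 FPKM in the early 2-cell column and 151 in the late 2-cell control column, and *Gm21399* at 44.9 and 9.33. How the authors' counting treated such reads is not given in the sources used here, so the levels of *Gpx4* and *Prdx1* are uncertain to that extent. Both copies differed in the same direction as their parent gene between these columns.

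Early and late 2-cell control embryos were compared to ask how the untreated embryo's redox genes move between 34 and 48 h, when the embryonic genome becomes active. *Gpx1* had 142 and 95 reads, or 17.5 and 14.2 FPKM, in the early libraries, and 2292 and 2551 reads, or 244 and 425 FPKM, in the late ones. *Gpx4* was at 8.95 and 6.25 FPKM early and at 93.7 and 150 FPKM late. *Prdx6* was at 3.29 and 1.88 FPKM early and at 16.9 and 12.7 FPKM late. For all 3, both late libraries lay above both early ones. By limma on the separated libraries with Benjamini-Hochberg adjustment over 7982 genes, *Gpx1* rose by 4.27 ± 0.47 on the log2(FPKM + 1) scale (SE; adjusted p = 0.00016). *Gpx4* rose by 3.81 ± 0.40 (limma adjusted p = 0.0001) and *Prdx6* by 2.16 ± 0.60 (limma adjusted p = 0.030).

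*Prdx1* and *Txn1*, which work as a pair, went the other way. *Prdx1* had 7106 and 4635 reads, or 414 and 328 FPKM, in the early libraries, and 37.7 and 65.6 FPKM in the late ones. *Txn1* was at 154 and 247 FPKM early and at 15.5 and 5.25 FPKM late, the last from 23 reads. Neither gene's libraries overlapped between the stages. *Prdx1* fell by 2.86 ± 0.40 on the log2 scale (limma adjusted p = 0.00061) and *Txn1* fell by 4.27 ± 0.80 (limma adjusted p = 0.0041). Per column, *Prdx1* was 7.19-fold and *Txn1* 19.3-fold higher early. The column difference of *Txn1*, -4.15, became -5.01 without late 2-cell control library A.

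The other genes did not pass the test. *Gsr* was at 1.22 and 1.49 FPKM early and at 10.4 and 8.28 FPKM late, a difference of 2.13 ± 1.07 (limma adjusted p = 0.198) although its libraries did not overlap. *Nfe2l2* was at 5.56 and 3.06 FPKM early and at 9.65 and 7.34 FPKM late, a difference of 0.87 ± 0.58 (limma adjusted p = 0.33). *Nqo1* had 96 and 133 reads early, the latter 18.4 FPKM. In the late control it had no read in library A and 79 reads, or 12.2 FPKM, in library B, so that the 2 stages overlapped. Its column difference of -1.14 became -0.25 without library A and -3.97 without library B. *Cat* and *Hmox1* had at most 2 reads in any of these 4 libraries. A count of 0 allows 3 reads, so a difference in either gene was not detectable at this depth.

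Of the 8 genes tested by limma, 5 passed, against 17.8% of all 7982 genes. On the column scale, where a gene needs 1 FPKM per library or more in one of the columns, 8 of the 10 passed the filter and 7 of these were past 2-fold, 4 higher and 3 lower late, against 63.9% of all 9514 genes. The libraries of 7 of these 8 did not overlap, against 64.8% of 8945 genes that passed the same filter and could be separated. These 2 column shares are to be read against the high shares over all genes.

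**Figure D2:**
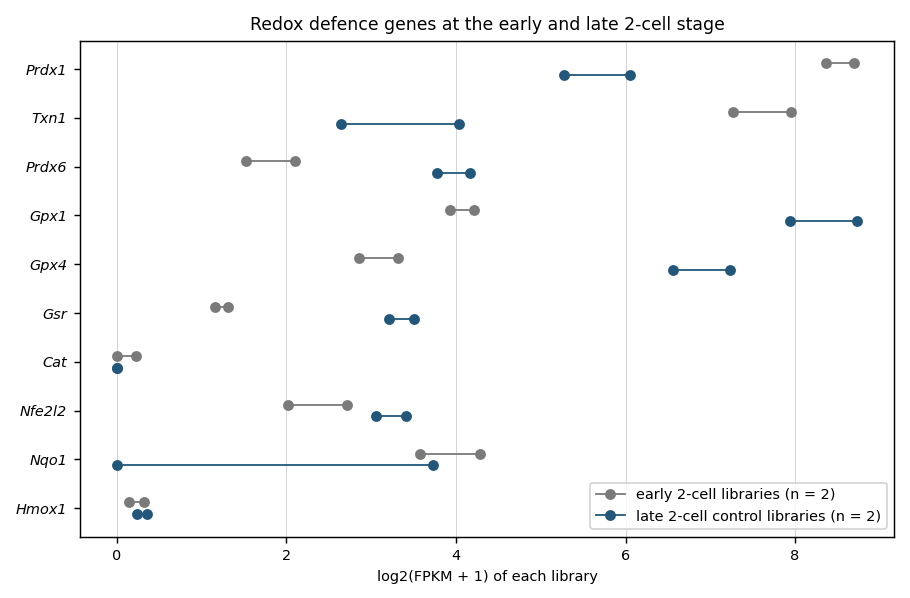
Level of each gene as log2(FPKM + 1) in the 2 early 2-cell and the 2 late 2-cell control libraries, joined within a stage. *Gpx1*, *Gpx4*, *Prdx6*, *Gsr* and *Nfe2l2* lie higher late, *Prdx1* and *Txn1* lie higher early, and the late libraries of *Nqo1* spread from 0 to 12.2 FPKM.

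Of 108 further genes of peroxide removal, thioredoxin, glutathione, NADPH supply and NRF2 control, 63 are among the rows and 48 were tested by limma, of which 5 rose and 4 fell from early to late 2-cell, against 11.1% and 6.68% of all genes. Between columns 15 of 52 were past 2-fold higher late and 21 lower, against 32.2% and 31.7% of all genes, with a median log2 difference of -0.20, against -0.003 over all genes. *Sesn2*, a stress-induced sestrin, rose from 4.09 to 140 FPKM per library (limma adjusted p = 7.9e-05). *Gpx7*, a glutathione peroxidase of the endoplasmic reticulum, rose from 0.206 to 17.8 FPKM (limma adjusted p = 0.011). *Taldo1*, transaldolase of the pentose phosphate pathway, rose from 11.4 to 65.1 FPKM (limma adjusted p = 0.0054). *Cul3*, the ubiquitin ligase scaffold that works with KEAP1, rose from 8.88 to 82.8 FPKM (limma adjusted p = 0.0082). *Bach2*, a repressor that competes for antioxidant response elements, fell from 21.2 to 1.49 FPKM (limma adjusted p = 0.0097). *Chac2*, which breaks down glutathione, fell from 91.4 FPKM to no read (limma adjusted p = 0.0016). *Txnrd1*, cytosolic thioredoxin reductase, was at 5.09 FPKM early and 0.284 late (limma adjusted p = 0.055). *Gsta4*, a glutathione transferase, was at 70.4 and 5.33 FPKM (limma adjusted p = 0.0697), and *Idh1*, an NADPH-making dehydrogenase, at 16.2 and 3.41 FPKM (limma adjusted p = 0.179).

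FK866 was then set against control at the late 2-cell stage, to ask whether the redox genes respond when NAD+ synthesis is blocked. None of the 8 genes tested passed limma at this stage. Over all genes, 8 of 7982, or 0.1%, passed, and 702 were under an unadjusted p of 0.05. *Nfe2l2* was at 9.65 and 7.34 FPKM in control and at 17.5 and 16.4 FPKM with FK866, a difference of 0.93 ± 0.58 (limma adjusted p = 0.685). *Txn1* was at 15.5 and 5.25 FPKM in control and at 25.1 and 22.6 FPKM with FK866, a difference of 1.29 ± 0.80 (limma adjusted p = 0.68). *Prdx1* was at 37.7 and 65.6 FPKM in control and at 102 and 68.5 FPKM with FK866 (0.73 ± 0.40, limma adjusted p = 0.633). In these 3 genes both FK866 libraries lay above both control libraries. The glutathione peroxidases overlapped between the groups, *Gpx1* with 268 FPKM in both FK866 libraries and *Gpx4* with 107 and 96.4.

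The other 3 genes past 2-fold rested on 1 FK866 library each. *Cat* had 112 reads, or 4.78 FPKM, in FK866 library A and none in library B or in either control library. Against a floor of 3 reads in the 2 control libraries together, its column was at least 22.3-fold higher with FK866. *Hmox1* had 48 reads, or 3.37 FPKM, in FK866 library B and 1 or 2 reads in the other 3 libraries. *Gsr* was at 5.51 FPKM in FK866 library A and had no read in library B, against 10.4 and 8.28 FPKM in control (-2.01 ± 1.07, limma adjusted p = 0.627). Summed cumulus cell markers were 0 and 5.34 FPKM in the control libraries and 6.24 and 13.1 FPKM in the FK866 libraries, and their part in these values was not tested. On the column scale 4 of the 10 genes were past 2-fold, *Cat*, *Hmox1* and *Txn1* higher and *Gsr* lower, against 38.1% of all 9022 genes. The libraries of 5 genes did not overlap, against 36.5%. Without FK866 library B the count fell from 4 to 2. The column difference of *Txn1*, 1.13, became 0.59 without control library B. *Nqo1* was at 4.74 and 1.43 FPKM with FK866 and its column difference of -0.80 became 2.03 without control library B. In the further lists 8 of 50 genes were past 2-fold higher and 5 lower, against 18.1% and 20.0% of all genes, and none of 48 passed limma. The greatest column differences were *Chac2*, from no read to 20.6 FPKM (limma adjusted p = 0.163), and *Osgin1*, an NRF2 target, from 16.6 to 1.83 FPKM (limma adjusted p = 0.39).

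NMN added to FK866 asks whether restoring NAD+ supply moves the values back. *Prdx1* was at 102 and 68.5 FPKM with FK866 and at 240 and 179 FPKM with FK866+NMN, with no overlap (1.30 ± 0.40, limma adjusted p = 0.110). *Nqo1* was at 4.74 and 1.43 FPKM with FK866 and at 14.1 and 12.2 FPKM with FK866+NMN, also with no overlap (1.92 ± 1.07, limma adjusted p = 0.379). *Txn1* was at 153 FPKM in FK866+NMN library A, from 1361 reads, and at 24.2 FPKM in library B, so its column difference of 1.85 became 0.02 without library A. *Gpx1* was at 110 and 236 FPKM, *Gpx4* at 68.2 and 95.7 and *Nfe2l2* at 11.5 and 12.5, each below both FK866 libraries. The differences were -0.73 ± 0.47 for *Gpx1* (limma adjusted p = 0.450), -0.32 ± 0.40 for *Gpx4* (limma adjusted p = 0.723) and -0.46 ± 0.58 for *Nfe2l2* (limma adjusted p = 0.734). The median limma difference over all genes was -0.32. *Cat* had 1 read and *Hmox1* 1 read in the 2 FK866+NMN libraries together, and *Gsr* had 2 reads in library A and 155 in library B. None of the 8 genes tested passed limma, against 2.73% of 7982 genes. By column, 5 of 10 were past 2-fold, *Prdx1*, *Txn1* and *Nqo1* higher and *Cat* and *Hmox1* lower, against 52.1% of 8605 genes. The libraries of 5 did not overlap, 2 higher and 3 lower, against 34.7% of all genes, with 9.47% higher and 25.3% lower.

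Set against control instead, a comparison added after the values were seen, *Prdx1* was higher with FK866+NMN by 2.03 ± 0.40 (limma adjusted p = 0.015), the 1 of 8 genes that passed, against 6.38% of all genes. Over all genes 1.04% were called higher and 5.34% lower, with a median limma difference of -0.42. The FK866+NMN libraries had 5495 and 6493 genes with a read, against 7600 and 8395 in control. The part of this in these values was not tested. On the column scale 2 of 8 genes, *Prdx1* and *Txn1*, were past 2-fold, against 57.2% of 8639 genes. Without FK866+NMN library B the count was 5. The column difference of *Txn1*, 2.98, became 1.15 without library A. *Prdx1* was 4.05-fold higher per column, and both libraries lay above both control libraries. *Txn1* was higher by 2.62 ± 0.80 (limma adjusted p = 0.0769), in both libraries. *Gpx1* was at 173 FPKM per library against 334 in control, lower in both libraries (-0.99 ± 0.47, limma adjusted p = 0.242). *Gpx7*, at 17.8 FPKM in control, had no read in either FK866+NMN library (limma adjusted p = 0.020). These comparisons share the FK866 or the control libraries with those above and are not independent of them.

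Controls at the late 2-cell and 4-cell stages were compared next. By the headers, *Gpx1*, *Gpx4*, *Prdx1* and *Prdx6* overlapped between the stages, at 289, 123, 54.6 and 19.3 FPKM per library in the 4-cell control column against 334, 122, 51.6 and 14.8 in the late 2-cell control. *Txn1* was at 24.5 and 47.3 FPKM, above both late 2-cell control libraries (1.79 ± 0.80, limma adjusted p = 0.192). *Nfe2l2* was at 18.1 and 15.3 FPKM and *Gsr* at 13.6 and 25.0 FPKM, also above both. *Nqo1* had 4 reads in 1 library and none in the other. None of the 8 genes passed limma, against 9.57% of all genes, and 2 of 8 were past 2-fold, against 58.0% of 8868 genes. Centring on the median of all genes made this 4, and without late 2-cell control library A or 4-cell control library B it was also 4. Without late 2-cell control library B it was 1.

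By the tables, 4-cell control is the column headed late 2-cell TSA, so this stage comparison by the tables and the TSA comparison by the headers are the same values. *Txn1* was at 33.3 and 55.7 FPKM in that column (2.12 ± 0.80, limma adjusted p = 0.0961). *Gsr* was at 24.5 and 47.8 FPKM, its highest level in any column (1.78 ± 1.07, limma adjusted p = 0.299), and *Prdx6* at 38.4 and 19.0 FPKM. All 3 were above both late 2-cell control libraries. *Nqo1* had no read in either library, and 1 of the 2 late 2-cell control libraries had no read too. Against the floor of 3 reads in the 2 libraries of that column together, it was at least 42.3-fold below late 2-cell control. *Gpx1* and *Nfe2l2* overlapped. None of 8 passed limma, against 17.2% of all genes, and 3 of 8 were past 2-fold, against 64.5% of 8648 genes.

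Under both readings *Prdx2*, another cytosolic peroxiredoxin, fell from late 2-cell to 4-cell control. It was at 295 FPKM per library late and at 4.43 FPKM in the column headed 4-cell control (limma adjusted p = 0.0021) or 6.66 FPKM in the column so read by the tables (limma adjusted p = 0.001). *Mgst3* and *Gstm5*, glutathione transferases, fell likewise, from 178 FPKM to 4.19 by the headers and no read by the tables, and from 132 FPKM to 0.0714 and 3.77. *Glrx3*, a monothiol glutaredoxin, rose from 10.5 to 52.0 FPKM by the headers (limma adjusted p = 0.015) and to 79.1 FPKM by the tables (limma adjusted p = 0.0028). In the further lists 1 of 48 genes rose and 6 fell by the headers, and 1 rose and 7 fell by the tables. Over all genes, 3.26% rose and 6.31% fell by the headers, and 5.86% and 11.3% by the tables.

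TSA, an inhibitor of deacetylases that do not need NAD+, and knockdown of *Sirt1*, a deacetylase that does, were set against the same late 2-cell control as FK866. The TSA column by the headers has been given. By the tables, TSA is the single library headed 4-cell FK866, whose spread is assumed to be that of the other groups. There *Txn1* had 777 reads, or 158 FPKM, against 15.5 and 5.25 in late 2-cell control, and was higher by 3.97 ± 0.98 (limma adjusted p = 0.039). *Gpx1* was at 75.3 FPKM against 244 and 425 (-2.08 ± 0.58, limma adjusted p = 0.0638). *Nfe2l2* was at 29.2 FPKM, its highest level in any library, against 9.65 and 7.34 (1.68 ± 0.71, limma adjusted p = 0.218). *Nqo1* had 6 reads, which lie between those of the 2 control libraries. The column difference of *Txn1*, 3.81, became 4.67 without control library A. By this reading 1 of 8 genes passed limma, against 5.51% of all genes, and 4 of 8 were past 2-fold, against 59.8% of 9420 genes.

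For *Sirt1* knockdown by the headers, *Gpx4* was at 309 and 191 FPKM against 93.7 and 150 in control (1.03 ± 0.40, limma adjusted p = 0.117). *Txn1* was at 24.7 and 50.4 FPKM (1.84 ± 0.80, limma adjusted p = 0.161) and *Gsr* at 23.9 and 15.5 FPKM, above both control libraries. None of 8 genes passed limma, against 12.9% of all genes, and 3 of 8 were past 2-fold, against 60.9% of 8779 genes, or 5 without library B of the column headed Sirt1. *Gpx4-ps2* was at 597 and 354 FPKM in the same libraries. By the tables the knockdown is the single library headed 4-cell FK866+NMN. There *Gpx4* was at 89.3 FPKM and *Gsr* at 7.25 FPKM, each below both control libraries, *Txn1* was at 15.7 FPKM, and *Hmox1* had 32 reads, or 2.65 FPKM, against 2 reads in each control library. No gene passed limma by that reading, of 8 tested and of 7982 in all (0.0%), with 653 of the 7982 under an unadjusted p of 0.05. On the column scale 2 of 9 were past 2-fold, *Hmox1* higher and *Nqo1* lower, against 44.5% of 8622 genes, and 1 without late 2-cell control library B.

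For FK866 at the 4-cell stage the column differences of *Gpx1*, *Gpx4*, *Txn1* and *Nfe2l2* had opposite signs under the 2 readings. That of *Gpx4* was -0.70 with the headers and 0.78 with the tables, and that of *Nfe2l2* 0.77 and -0.44. Among the other genes that passed the filter in both, *Gsr* and *Prdx6* were lower and *Prdx1* higher under each. With the tables, however, the libraries of *Txn1*, *Nfe2l2*, *Prdx6* and *Prdx1* overlapped. The difference of *Prdx1* was then 0.10, and 0.52 with the headers, where the median over all genes was 0.42. By the headers, with 1 FK866 library, *Gpx1* was at 75.3 FPKM against 176 and 403 in control (-1.81 ± 0.58, limma adjusted p = 0.045), *Gsr* at 4.26 FPKM against 13.6 and 25.0, and *Txn1* at 158 FPKM against 24.5 and 47.3 (2.18 ± 0.98, limma adjusted p = 0.130). The column difference of *Gpx1*, -1.93, became -1.21 without 4-cell control library B. *Gpx1* was the 1 of 8 genes that passed limma, against 22.4% of all genes, and 3 of 7 were past 2-fold, against 74.7% of 9368 genes. By the tables, with 2 libraries on each side, *Gpx1* was at 361 and 277 FPKM with FK866 and at 195 and 263 FPKM in control (0.48 ± 0.47, limma adjusted p = 1). *Gpx4* was at 309 and 191 FPKM against 136 and 155, *Txn1* overlapped, and *Gsr* was at 23.9 and 15.5 FPKM against 24.5 and 47.8. *Nqo1* had 22 and 40 reads, or 1.42 and 8.13 FPKM, with FK866 and none in control (2.23 ± 1.07, limma adjusted p = 0.819). Its column was at least 33.1-fold higher with FK866 against the floor of 3 reads in the 2 control libraries together. None of 8 genes passed limma, against 0.113% of 7982, or 9 genes, with 502 under an unadjusted p of 0.05. On the column scale 1 of 8 was past 2-fold, against 34.6% of 7420 genes, and 2 to 4 with any 1 library left out.

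**Figure D3:**
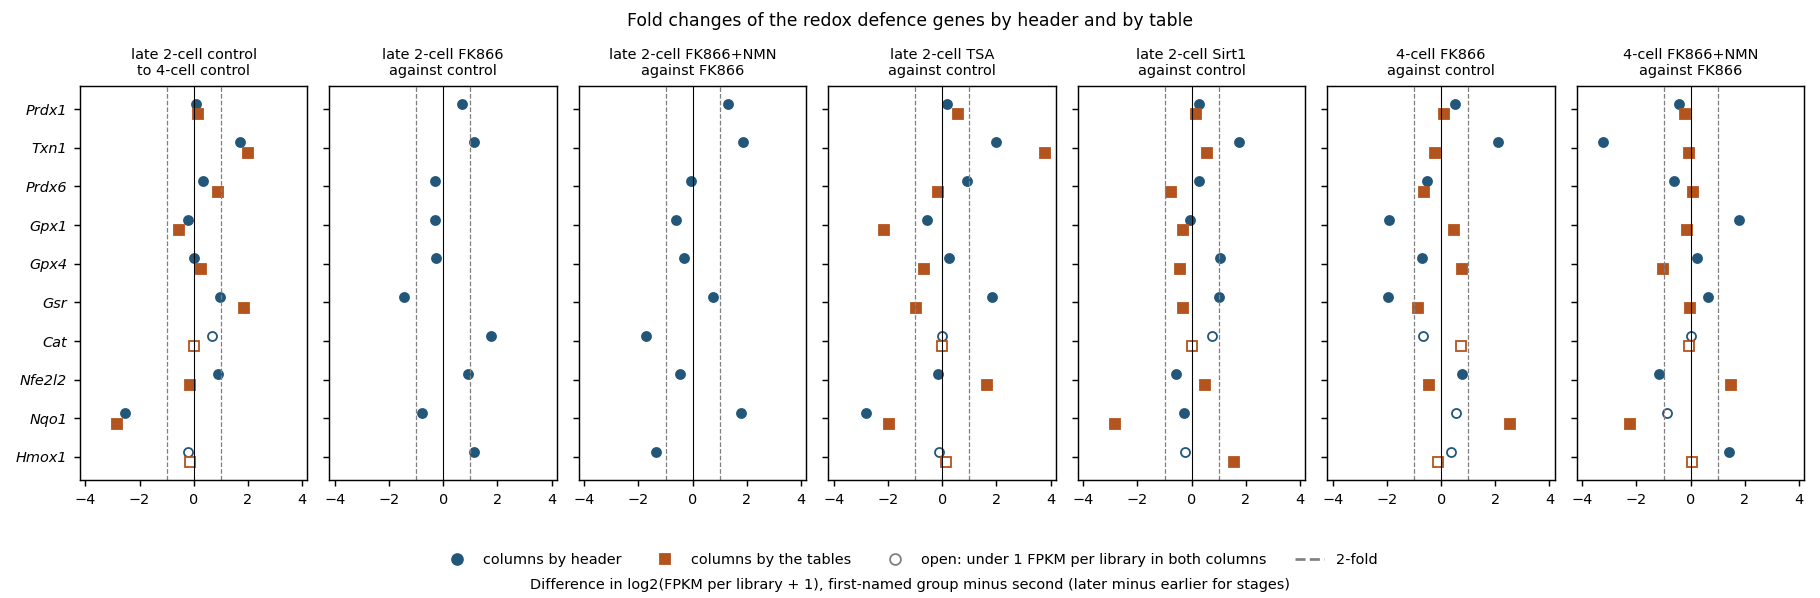
Difference between columns in log2(FPKM per library + 1) for each gene in the 7 other comparisons, circles by header and squares by the tables, open where both columns were under 1 FPKM per library and dashed at 2-fold. *Gpx1* in 4-cell FK866 against control moves from -1.93 by the headers to 0.48 by the tables, and *Txn1* from 2.11 to -0.24.

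NMN added to FK866 at the 4-cell stage also changed with the reading. By the headers, with 1 library on each side, *Txn1* was at 15.7 FPKM with NMN and 158 without (-3.25 ± 1.13, limma adjusted p = 0.186), and *Gpx1* at 265 and 75.3 FPKM (1.80 ± 0.67, limma adjusted p = 0.213). *Nfe2l2* was at 12.4 and 29.2 FPKM. None of 8 passed limma, against 2.34% of all genes, and 4 of 8 were past 2-fold, against 59.7% of 8929 genes. By the tables, *Nfe2l2* was at 18.1 and 15.3 FPKM with NMN and at 2.21 and 8.39 FPKM without (1.68 ± 0.58, limma adjusted p = 1). *Gpx4* was at 146 and 101 FPKM with NMN and 309 and 191 without (column difference -1.01, limma adjusted p = 1). *Nqo1* had 4 reads in 1 library with NMN, against 22 and 40 reads without. None of 8 passed limma, against 0.0251% of 7982, or 2 genes, with 235 under an unadjusted p of 0.05, and 3 of 8 were past 2-fold, against 26.3% of 7754 genes, or 1 without library A of the FK866 column.

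Whether the responses to FK866 or NMN differed between the late 2-cell and 4-cell stages was tested as an interaction in limma. None of the 8 genes passed for either agent under either reading. Over all 7982 genes, 8.07% passed for FK866 and 2.49% for NMN by the headers. By the tables, the shares were 0.2% for NMN and 0.0% for FK866, where 607 genes were under an unadjusted p of 0.05. The smallest adjusted p was 0.105, for *Txn1* and NMN by the headers (-4.58 ± 1.38).

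Likeness of pattern across the 9 columns is given as a description, since columns share stages and 2 of them hold 1 library. *Gpx1* and *Gpx4* were most alike (Pearson's r of log2(FPKM per library + 1) = 0.927), followed by *Gpx4* with *Prdx6* (0.898) and *Prdx6* with *Gsr* (0.853). *Prdx1* and *Txn1* had an r of 0.729, and *Prdx1* with *Gpx4* had the lowest of the 45 pairs, at -0.832. *Nfe2l2*, which encodes the factor, had r of -0.467 with *Nqo1*, -0.321 with *Prdx1*, -0.133 with *Gsr*, -0.002 with *Txn1* and 0.330 with *Hmox1*. Among 12262 genes, the most alike in pattern were *Cdk9* for *Gpx1* (r = 0.991), *Mt1*, a metallothionein, for *Gpx4* (0.979), *Tomm7* for *Gsr* (0.995), *Ntpcr* for *Prdx1* (0.978) and *Smap2* for *Txn1* (0.920). *Gm10420* was most like *Prdx6* (0.981), *Gm44739* most like *Nfe2l2* (0.906) and *Pitpnm2* most like *Nqo1* (0.910). For *Cat* and *Hmox1*, which had few reads, they were *Prrx2* (0.968) and *Nxpe4* (0.984).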

How the data were processed

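Per the methods of the study, the authors ran FastQC and Trim Galore on the reads. HISAT2 placed them on mm10 and featureCounts gave gene counts. From these the authors computed the deposited FPKM, with a column for each of 9 groups. The rows cover chromosomes 1 to 11 and 15747 of them are complete. The submitters' processing notes also name CASAVA 1.4. The 24 other samples of the series, 42 in all, hold H3K27ac data and were not analysed here.

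With GENCODE M21 exon lengths, for 15360 genes, FPKM values were turned back into whole reads of each library, which gave 1 solution for 96.8% to 97.8% of values above 0. The method was tested on simulated data. Column values were divided by the number of libraries found. A column difference is that of log2(FPKM per library + 1), a scale that understates the change of low genes. Genes under 1 FPKM per library in both columns were left out, and past 2-fold means an absolute difference above 1.

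The test is limma 3.58.1 (R 4.3.3) with trend on log2(FPKM + 1) of the 16 separated libraries, in 1 fit by column with 7 residual degrees of freedom, over 7982 genes averaging at least 1 FPKM, with Benjamini-Hochberg adjustment at 0.05. *Cat* and *Hmox1* were under that level. The test is given beside the fold between columns, since the libraries could be separated. Floors of 3 reads, taken over the 2 libraries of a column together, cover counting error only, since the cDNA was amplified without molecular identifiers. Reading columns by the tables and the FK866+NMN comparison with control were chosen after seeing the data.

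The genes and lists were chosen with earlier results of these data known. The lists were counted in every comparison, and the counts are printed for some of them. The named genes are the 10 themselves, up to 2 genes of each further list with the greatest fold between columns in a comparison, and the gene most like each in pattern, of which a selection is printed. *Sirt1*, *Gpx4-ps2*, *Gm21399* and *Txn-ps1* were named after their values were seen. The promoter motif was searched in RefSeq windows, and near-identical transcripts were sought with blastn at 95% identity over at least 100 bases. The alternatives tried were other pseudocounts (0.1 or 5), another filter (5 FPKM or none), centring on the median, columns by the tables, and leaving out each library. Python 3.11.15, numpy 2.4.6, pandas 2.3.3 and matplotlib 3.10.9 were used.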

Additional observations from a re-analysis of the deposited data

How the results depend on the processing

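The count of genes past 2-fold is given under each alternative where it moved by more than 1.5 times. From late 2-cell to 4-cell control the count of 2 became 4 when centred on the median and 0 by limma, and ranged from 1 to 4 with each library left out. For late 2-cell FK866 against control the count of 4 became 0 with a pseudocount of 5, 2 with a minimum of 5 FPKM and 0 by limma, and ranged from 2 to 6 with each library left out. For late 2-cell FK866+NMN against FK866 the count of 5 became 3 with a pseudocount of 5, 3 with a minimum of 5 FPKM and 0 by limma, and ranged from 4 to 7. For TSA the count of 3 became 0 by limma and ranged from 2 to 4. For the Sirt1 column it became 0 by limma and ranged from 2 to 5. For 4-cell FK866 against control the count of 3 became 1 by limma and 1 with the columns by the tables. For 4-cell FK866+NMN against FK866 the count of 4 became 2 with a pseudocount of 5 and 0 by limma. For late 2-cell FK866+NMN against control, added after seeing the data, the count of 2 became 1 by limma and ranged from 2 to 5 with each library left out. From early to late 2-cell the count of 7 stayed between 5 and 8 under every alternative run. With the columns by the tables, single genes past 2-fold changed direction: Gsr to -0.97 for TSA, Gpx4 to -0.44 and Gsr to -0.32 for the Sirt1 knockdown, Txn1 to -0.24 and Gpx1 to 0.48 for 4-cell FK866, and Gpx1 to -0.14 and Nfe2l2 to 1.49 for 4-cell FK866+NMN. Apart from these readings of the columns, the cause of a change was not tested. Leaving out libraries was run on column differences and not on the limma calls. No paired analysis was possible because the columns carry no replicate numbers. With totals of 3169677 to 10003481 reads and at most 2 libraries a column, the levels of Cat and Hmox1 rested on single libraries, with 112 reads of Cat and 48 or 32 reads of Hmox1, and were at or near 0 reads in most others.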
